A study of Mus musculus with 3 samples.

Results

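Macrophages of the crushed mouse sciatic nerve were compared between day 5 and day 1 after injury, over every cell that passed 1 filter in each library. A cell was kept where it had at least 200 detected genes and at most 10% of its UMIs (unique molecular identifiers, counts of captured RNA molecules) from mitochondrially encoded genes. The filter kept 4852 cells, 2793 from day 1 and 2059 from day 5, of 5586 cell barcodes in the series. The library of uninjured nerve (steady state, 728 kept cells) is given beside them as the resting level and enters no ratio between the days.

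The study profiled C57BL/6 sciatic nerve macrophages by droplet sequencing at rest and after nerve crush. Each of the 3 libraries is a single sample, so no difference between the days has a replicate check, no test was made, and all intervals cover counting error only. The sources used here do not say how many animals each library pools, how the cells were sorted, or the age and sex of the mice. UMIs were summed over the cells of a library and are given as counts per 1000000 UMIs (CPM). In such sums, a change in which cells were caught and a change in RNA per cell cannot be told apart.

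After a crush, the axons beyond the lesion degenerate, and blood monocytes enter the nerve and mature into macrophages that clear myelin and axon debris. Early in this course such cells are known for the arginine-degrading enzyme arginase, for glycolysis, and for chemokines that call in further leukocytes. Later macrophages are known for lipid handling, complement and antigen presentation, and resident nerve macrophages carry such genes at rest.

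The day 1 library held 7963091 UMIs with a median of 2555 per cell, and the day 5 library held 5524496 with a median of 2473. Steady state held 1656510 UMIs with a median of 2238.5. Day 1 and day 5 shared 11 cell barcodes, and leaving these cells out moved no named ratio by more than its counting interval. All 10 macrophage identity markers were detected on both days, but in very different shares of cells. Lyz2, a lysozyme of myeloid cells, had a UMI in 99.5% of day 1 and 99.95% of day 5 cells, and Tyrobp in 97.96% and 97.18%. Csf1r was found in 38.6% and 58.72%, Adgre1 in 20.59% and 33.66%, Ptprc in 19.73% and 27.54%, and Mertk in 4.01% and 4.177%. Aif1 was in 76.73% and 77.61%. Cd68, Fcgr1 and Itgam were found in fewer cells at day 5: 69.03% and 61.87%, 53.2% and 38.27%, and 37.59% and 24.04%. Whether each cell is a macrophage rather than a monocyte was not tested, and the label is that of the study. Cells with 3 or more markers of another cell type numbered 13 at day 1 (0.465%) and 10 at day 5 (0.486%), mostly of a mature dendritic cell type (9 and 7 cells). Summed neutrophil markers stood at 106.4 CPM on day 1 and 39.8 CPM on day 5 with Ly6g, Ngp and Camp at 0 UMIs, and summed red cell markers at 11.6 CPM and 0.362 CPM. Their part in the differences was not tested. The counts of cells left S100a8 and S100a9 out of the neutrophil markers, although the summed CPM includes them. Under that rule no cell carried 3 neutrophil markers or 3 red cell markers. Cells that would reach 3 neutrophil markers only with S100a8 or S100a9 were not counted.

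Most genes kept their level from day 1 to day 5. Among the 6655 genes that reached 10 CPM in either crushed-nerve library, 5963 (89.6%) lay within 2-fold. At least 2-fold higher at day 5 were 327 genes (4.91% of those tested), and at least 2-fold lower were 365 (5.48%). At 4-fold the counts were 63 higher (0.947%) and 64 lower (0.962%). The median log2 ratio of day 5 over day 1 was -0.11, with 5% of genes below -1.03 and 5% above 0.99. Under median-of-ratios scaling, which sets the typical gene rather than the library total equal, that median moved to 0.01. The share of 2-fold calls that were higher then moved from 47.2% to 60.5%. The plot of all genes by day shows a narrow band with long tails on both sides.

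**Figure D1:**
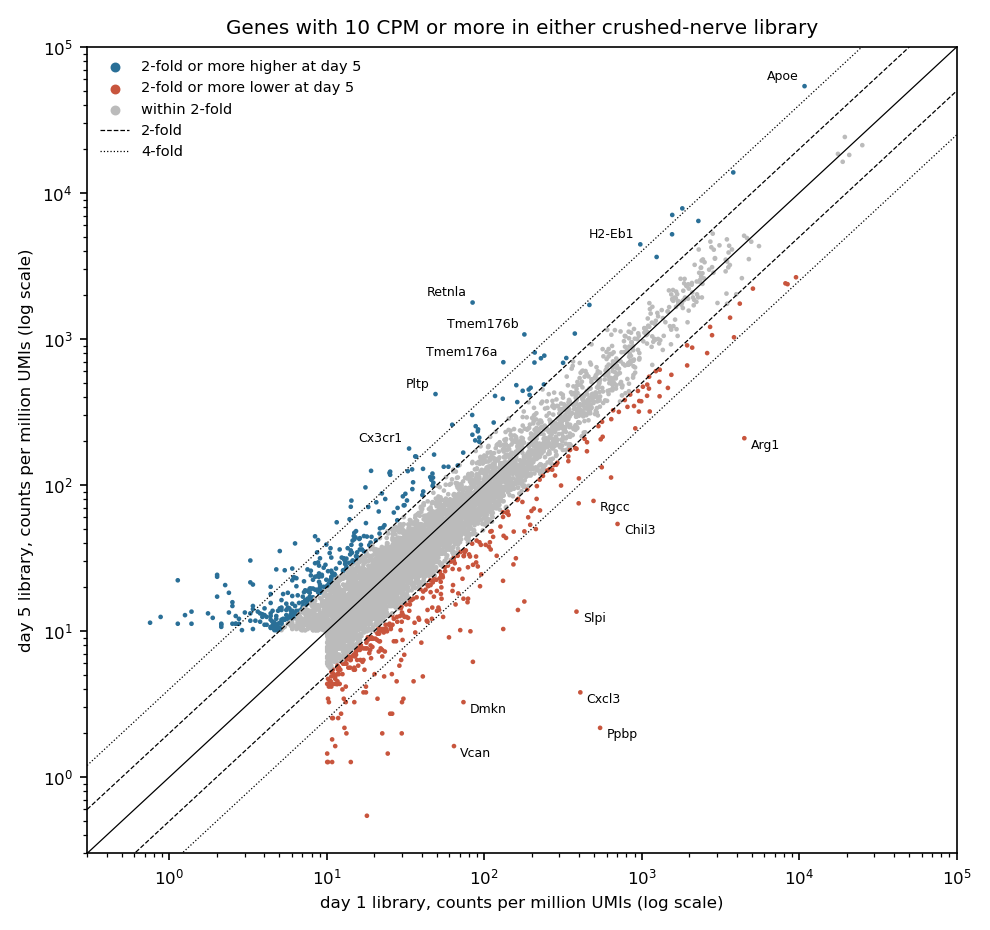
Each point is 1 of 6655 genes, with its counts per 1000000 UMIs in the day 1 library on the x axis and in the day 5 library on the y axis, both on log scales; dashed and dotted lines mark 2-fold and 4-fold. Most points lie between the dashed lines, Apoe stands highest among the genes above them, and Ppbp and Cxcl3 lie farthest below.

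Counted as RNA rather than as genes, 17.9% of the day 5 UMIs would have to change gene to give the day 1 profile. The 10 genes with the largest gain made up 8.55% of the day 5 UMIs beyond their day 1 share. These 10 were Apoe, the invariant chain gene Cd74, the class II genes H2-Ab1, H2-Aa and H2-Eb1, Lyz2, the complement genes C1qa, C1qb and C1qc, and Itm2b. The 10 with the largest loss summed to 4.01%. They were the chemokine genes Ccl6, Pf4, Ccl9 and Ccl7, the secreted phosphoprotein gene Spp1, Arg1, the ferritin genes Ftl1 and Fth1, the galectin gene Lgals3 and the nuclear RNA Malat1.

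Apoe, whose product carries cholesterol and other lipids out of cells, was the gene with the largest single gain. It stood at 10814 CPM on day 1, 53930 CPM on day 5 and 40937 CPM in steady state. It thus took 1.08% of all UMIs at day 1 and 5.39% at day 5, where it was the most abundant gene. The ratio was 4.99 (95% counting interval 4.95 to 5.03). Nearly every cell had the transcript on both days, 97.6% and 99.7%. What differed was the number of UMIs per detecting cell, 31.6 at day 1 and 145.1 at day 5. For most other leading genes it was the share of cells that differed more.

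The largest ratio among genes at 50 CPM or more belonged to Retnla, a secreted resistin-like protein of alternatively activated macrophages. It stood at 84.3 CPM on day 1, 1778 CPM on day 5 and 6939 CPM in steady state. Day 5 was 21.1-fold above day 1 (19.5 to 22.9) and still below the resting level. A Retnla UMI was found in 3.04% of day 1 cells (2.44 to 3.75), 32.8% of day 5 cells (30.8 to 34.9) and 58.9% of steady-state cells. Thinned to 1000 UMIs per cell, which takes depth out of the comparison, the shares were 1.96% and 19.2%. Thinning left out 297 day 1 and 282 day 5 cells with fewer UMIs.

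Pltp, the phospholipid transfer protein, was at 49.0 CPM on day 1, 419.6 CPM on day 5 and 591 CPM in steady state. Its day 5 level was 8.57-fold higher (7.69 to 9.56), and detection went from 9.63% to 49.0% of cells. The paired membrane protein genes Tmem176b and Tmem176a differed together. Tmem176b was at 180 CPM on day 1, 1075 CPM on day 5 and 1804 CPM in steady state, and was detected in 19.2% and 70.1% of crushed-nerve cells. Tmem176a went from 132 to 694 CPM, a 5.25-fold difference (4.90 to 5.63), against 1058 CPM at rest. Cx3cr1, the receptor for the neuronal chemokine fractalkine, was at 33.3 CPM on day 1, 178 CPM on day 5 and 116 CPM in steady state. Its detection was 6.12% at day 1 and 24.6% at day 5, and unlike Retnla its day 5 level was above the resting one.

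Ramp1, which forms the receptor for the neuropeptide CGRP with its partner, went from 19.1 to 125 CPM, with 70.6 CPM in steady state. Gdf15, a stress-induced cytokine of the TGF-beta family, stood at 17.6 CPM on day 1, 96.3 CPM on day 5 and 12.1 CPM in steady state, so that only day 5 was high. Axl, a receptor for apoptotic cells, was 5.00-fold higher (4.05 to 6.22), at 14.2 CPM and 71.0 CPM. Fcna, the lectin ficolin A, was 5.46-fold higher at day 5 (14.3 to 78.2 CPM) while the resting level was 427 CPM. The other leading genes, Pou2f2 (a B cell and macrophage transcription factor), Bmyc, Ppfia4 and the histone gene Hist1h2bc, were between 4.65-fold and 4.89-fold higher. Each was found in under 5% of day 1 cells. The histone gene has close copies, so its reads may be split among them.

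**Figure D2:**
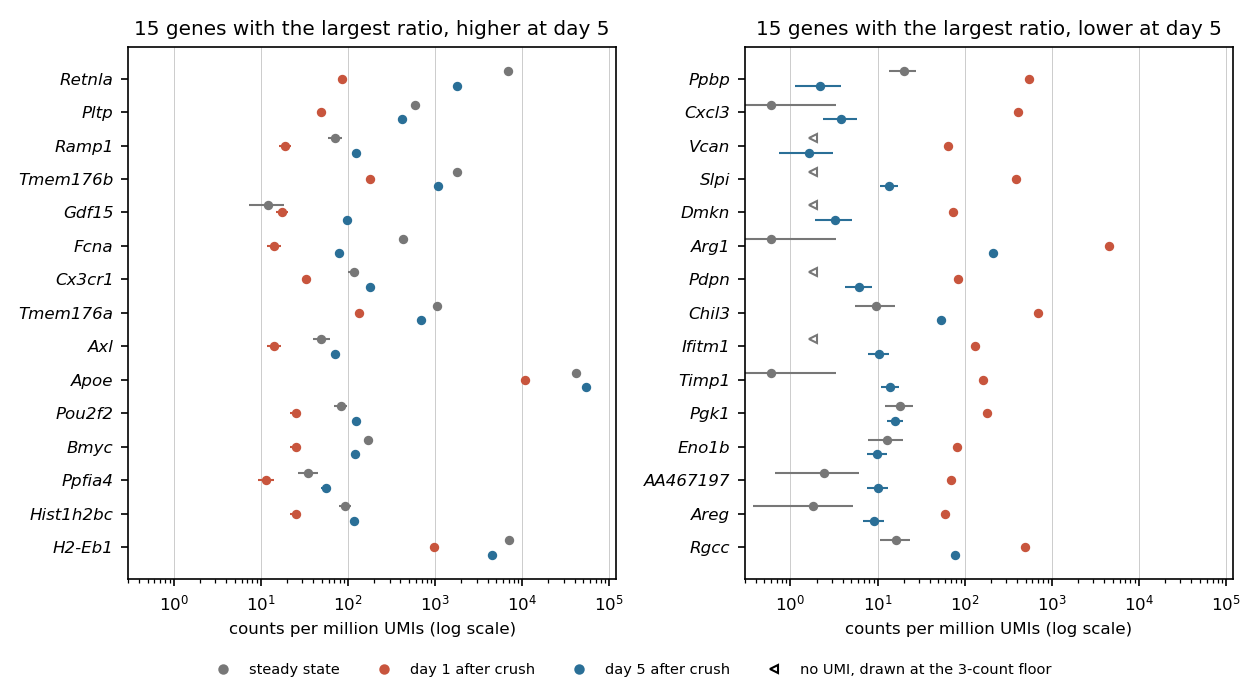
Counts per 1000000 UMIs (log axis) of the 15 genes with the largest ratio in each direction among genes at 50 CPM or more, in the steady-state, day 1 and day 5 libraries; bars are 95% counting intervals and open triangles mark genes with no UMI. Day 5 lies nearer to steady state than day 1 for Retnla, Pltp, Apoe and H2-Eb1 on the left, and day 1 is the highest of the 3 libraries for every gene on the right.

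Among the genes lower at day 5, the chemokine genes Ppbp and Cxcl3, whose products attract neutrophils, led. Ppbp was at 544 CPM on day 1, 2.17 CPM on day 5 and 19.9 CPM in steady state, a 250-fold difference between the days with a wide interval (143 to 485) since day 5 held 12 UMIs. It was detected in 22.6% of day 1 cells and 0.486% of day 5 cells. Ppbp is also a platelet gene, and the 7 platelet markers together had 0 UMIs at day 1. Cxcl3 went from 407 to 3.80 CPM, 107-fold (70.0 to 173), and from 28.0% to 0.583% of cells. Steady state held 1 UMI of Cxcl3.

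Arg1, which splits arginine into ornithine and urea, was the most abundant gene of this group. It was at 4483 CPM on day 1 and 209 CPM on day 5, with 1 UMI in all of steady state. The day 5 level was 21.4-fold lower (20.2 to 22.7). Detection was 84.6% (83.2 to 85.9) at day 1 and 17.9% (16.3 to 19.7) at day 5, and the cells that still had it at day 5 held 3.13 UMIs each against 15.1 at day 1. At 1000 UMIs per cell, 74.1% and 10.9% of cells had the transcript. Detection of Arg1 therefore differed both in the share of cells with a UMI and in the UMIs per such cell. In droplets, free RNA can give UMIs to cells that do not express a gene. Of the few cells of the mature dendritic type, 4 of 9 had an Arg1 UMI at day 1 and 1 of 7 at day 5. Their medians were 2595 and 3577 UMIs per cell. Shares of the size seen at day 5 therefore cannot be told apart from such background. Its part in the day 1 shares was not tested. None of these 9 and 7 cells had a UMI of Ppbp or Cx3cr1, which with so few cells does not show either gene free of background. Other genes higher at day 5 were seen in the dendritic-type cells too: at day 5 Retnla was in 2 of the 7, Axl in 2, Csf1r in 3 and C1qa in 6. With so few reference cells, background cannot be told apart from expression for these shares either.

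The other leading genes of this direction were each found in far fewer cells at day 5. Slpi, a secreted protease inhibitor, was at 385 CPM on day 1 and 13.6 CPM on day 5. Chil3, a chitinase-like protein of monocytes, was at 702 CPM and 54.1 CPM, and found in 36.5% and 5.83% of cells, or 25.8% and 2.70% at 1000 UMIs per cell. Vcan, a matrix proteoglycan, was at 64.2 CPM and 1.63 CPM. Timp1, an inhibitor of metalloproteases, was at 164 CPM and 13.9 CPM. Pdpn, Dmkn and Ifitm1 were 12.8-fold to 22.6-fold lower and, like Slpi and Vcan, had no UMI in steady state. Rgcc, a regulator of the cell cycle, was at 494 CPM and 77.8 CPM and found in 40.2% and 8.35% of cells. Areg, a ligand of the EGF receptor, was at 59.6 CPM and 9.05 CPM, and AA467197 at 70.3 CPM and 10.1 CPM. The glycolytic genes Pgk1, 11.3-fold lower (9.09 to 14.2), and Eno1b, from 81.6 to 9.96 CPM, completed the 15. Chil3, Pgk1 and Eno1b have near-identical copies, so their own counts are uncertain.

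**Figure D3:**
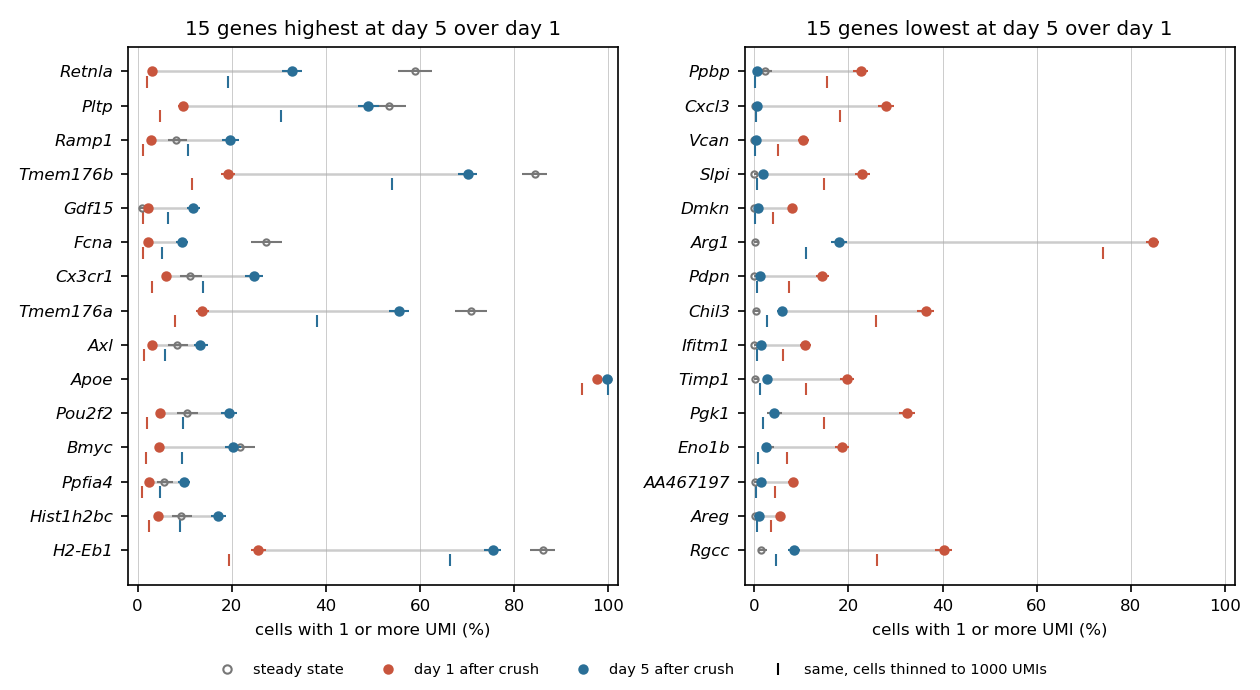
Percent of cells with at least 1 UMI of each leading gene in the day 1, day 5 and steady-state libraries, with exact 95% binomial intervals; short vertical ticks give the same share with every cell thinned to 1000 UMIs. Apoe alone is near 100% on both days, while Arg1 goes from 84.6% to 17.9% and H2-Eb1 from 25.7% to 75.4%.

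The day 5 levels of the genes past 4-fold were mostly nearer to the resting nerve than those of day 1. Of the 63 higher genes, 55 had been at least 2-fold below steady state at day 1, and 37 were within 2-fold of it at day 5, 12 above and 14 below. Of the 64 lower genes, 61 had been at least 2-fold above steady state at day 1. At day 5, 31 of the 64 were within 2-fold of steady state, 28 above and 5 below. In all these counts, a gene with no UMI in steady state was set to 3 UMIs there. Vcan and Dmkn, with 0 UMIs at rest, therefore count as within 2-fold at day 5. Since the same day 1 library sets both the choice and the first of these counts, they are a description only. The ratio of cell shares was near the ratio of levels in both sets (median absolute log2 of 2.08 against 2.39 for higher genes and 2.34 against 2.64 for lower genes). UMIs per detecting cell differed far less (0.20 and 0.35).

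Genes of MHC class II antigen presentation, which display peptides to CD4 T cells, were higher at day 5 as a group. Of 8 members at 10 CPM or more, 7 passed 2-fold upward and 0 downward, beside 4.91% and 5.48% of all genes, with a median log2 ratio of 1.99. H2-Aa, an alpha chain, was at 1562 CPM on day 1, 7076 CPM on day 5 and 10833 CPM in steady state, and was detected in 33.1% and 82.1% of crushed-nerve cells. Its partner H2-Ab1 was at 1810 and 7848 CPM, and the beta chain H2-Eb1 at 979 and 4450 CPM. Cd74, the invariant chain, went from 3813 to 13839 CPM, 3.63-fold (3.58 to 3.68), against 29248 CPM at rest. Day 5 lay between day 1 and steady state for each of these 4 genes. Ciita, the master activator of class II genes, was itself at 3.39 CPM and 20.8 CPM (27 and 115 UMIs); it was picked after its value was seen.

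Promoters of H2-Eb1 and H2-Aa are shown because class II genes moved together and share a known promoter architecture. They had the largest ratios among members with a single annotated start whose window holds the motif below. That choice fixed in advance that both would show a match. Ciita had a larger ratio and is not shown. Class II promoters carry a conserved Y box, a CCAAT motif bound by the factor NF-Y, a short distance before the start. The RefSeq promoter table (GRCm38.p6) held 5 of the 8 members. Below are the 250 bases before the annotated start, 5' to 3' on the gene's strand, with CCAAT on either strand (ATTGG when reversed) in capitals. H2-Eb1 lies on chromosome 17 (chr17:34305617-34305866, plus strand) and H2-Aa on the same chromosome (chr17:34287824-34288073, minus strand).
H2-Eb1: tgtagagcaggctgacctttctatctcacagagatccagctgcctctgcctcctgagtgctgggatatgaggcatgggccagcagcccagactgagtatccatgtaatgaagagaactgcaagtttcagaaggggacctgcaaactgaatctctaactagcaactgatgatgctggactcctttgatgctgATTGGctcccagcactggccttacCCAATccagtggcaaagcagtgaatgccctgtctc
H2-Aa: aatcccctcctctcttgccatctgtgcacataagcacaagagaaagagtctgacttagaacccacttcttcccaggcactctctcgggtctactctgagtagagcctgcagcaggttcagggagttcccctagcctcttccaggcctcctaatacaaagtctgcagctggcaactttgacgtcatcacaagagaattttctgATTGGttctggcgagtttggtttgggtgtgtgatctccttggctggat
The motif begins 48 bases before the start in H2-Aa, and 59 and 35 bases before it in H2-Eb1. It was found in 5 of the 6 windows of these members. Among all 32851 windows of the same length 33.9% held it, and among the 6593 windows of genes tested here 34.7%.

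MHC class I and immunoproteasome genes, which present peptides from inside the cell, moved little: 0 of 16 members passed 2-fold either way, with a median log2 ratio of 0.23. H2-D1 was at 2868 CPM on day 1, 4091 CPM on day 5 and 3281 CPM in steady state. H2-K1 was 1.35-fold higher at day 5 (1.30 to 1.40) and the immunoproteasome subunit Psmb9 1.41-fold. Class I genes have close copies, and reads may be split among them.

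Complement genes, which tag debris for uptake, gave 4 of 11 members past 2-fold upward and 1 downward (median log2 0.57), beside 4.91% and 5.48% of all genes, against which the counts of the lists that follow are also to be read. The 3 chains of C1q moved together. C1qa was at 1558 CPM on day 1, 5216 CPM on day 5 and 7911 CPM in steady state, C1qb at 2289, 6435 and 7959 CPM, and C1qc at 1243, 3647 and 7053 CPM. C1qa was detected in 53.1% of day 1 and 89.9% of day 5 cells. C4b was 4.18-fold higher (3.36 to 5.24), with a near-identical copy, C4a, that may share its reads.

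Lipid genes did not move as 1 block. Of 27 members of the transport and storage list, 4 passed 2-fold upward and 6 downward, and the median log2 ratio of -0.00 changed sign under several scalings. The higher members include Apoe and Pltp, which move lipid between particles. Hilpda and Fabp5, a lipid droplet protein and a fatty acid binding protein, were lower. Hilpda was at 557 CPM on day 1, 132 CPM on day 5 and 8.45 CPM in steady state, and Fabp5 at 1466, 462 and 13.3 CPM. Cholesterol synthesis gave 0 of 11 members higher and 4 lower (median -0.72), with Fdps 2.25-fold lower (1.85 to 2.76) and Ebp at 129 and 127 CPM.

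Genes associated with microglia, the macrophages of the brain, were mostly higher at day 5: 10 of 18 members by 2-fold and 0 lower (median log2 1.09). Besides Cx3cr1, Fcrls went from 117 to 408 CPM and Csf1r, the growth factor receptor on which macrophages depend, from 239 to 488 CPM. Csf1r was detected in 38.6% and 58.7% of cells. Steady state held 640 CPM of Fcrls and 773 CPM of Csf1r. Gpr34, picked after its value was seen, had the largest ratio of the list, from 9 to 123 UMIs.

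Of genes of resident and epineurial macrophages, 7 of 21 were higher by 2-fold and 1 was lower (median 0.95), yet the summed level of the whole list stayed far from rest. It was 2731 CPM on day 1, 4645 CPM on day 5 and 20732 CPM in steady state. Retnla alone gave 1694 CPM of the difference between the days. Thinned to 1000 UMIs, the list took a median of 0.2% of a cell's UMIs on both days, and 49.3% of day 5 cells lay above the day 1 median. With every gene that had at least 1 UMI counted, the list's median log2 ratio was 0.34. Beside Retnla and Fcna, the tetraspanin gene Cd81 went from 62.5 to 259 CPM, against 1985 CPM at rest. Its share of cells was 7.77% at day 1, 26.4% at day 5 and 86.5% in steady state. Ccl24, an eosinophil chemokine on the same list, went the other way, from 638 to 113 CPM. Members picked after their values were seen differed in direction, with Folr2, a folate receptor, 1.93-fold higher (1.81 to 2.07) and the scavenger receptor gene Cd163 1.58-fold lower (1.30 to 1.92).

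Genes of monocytes and their granules were lower on the whole, 14 of 26 members by 2-fold and 1 higher (median log2 -1.05). Next to Vcan, Slpi, Chil3 and Ifitm1, Ly6c2, the surface protein that marks classical monocytes, was at 251 CPM on day 1, 126 CPM on day 5 and 13.9 CPM in steady state. It was detected in 19.5% and 7.33% of crushed-nerve cells. Ccr2, the receptor by which monocytes leave the bone marrow, did not follow it, at 315 and 333 CPM (ratio 1.06, 0.99 to 1.12). Both were picked after their values were seen. The neutrophil alarmin S100a8 is also on the list, at 29.9 CPM and 1.99 CPM.

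Arginine and polyamine metabolism gave 6 of 13 members at least 2-fold lower and 0 higher (median -0.93). Arg1 apart, Ass1, which remakes arginine, was at 51.6 CPM on day 1 and 13.9 CPM on day 5. The spermine oxidase Smox was 2.50-fold lower (2.12 to 2.97) and the antizyme inhibitor Azin1 2.68-fold lower (2.17 to 3.34). All 3 were at 29.0 CPM or below in steady state.

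Glycolysis and hypoxia response genes were the list with the lowest median log2 ratio, -1.40, with 22 of 27 members at least 2-fold lower at day 5 and 0 higher. Eno1, the enolase of glycolysis, was at 910 CPM on day 1, 244 CPM on day 5 and 184 CPM in steady state, and was detected in 67.8% and 35.9% of crushed-nerve cells. Pgk1, phosphoglycerate kinase, was at 180, 15.9 and 18.1 CPM. The lactate exporter Slc16a3 was at 196, 53.4 and 1.81 CPM. Ankrd37, a target of hypoxia-inducible factor, went from 65.7 to 15.2 CPM. Hif1a, the oxygen-regulated subunit of that factor, was itself 2.67-fold lower (2.41 to 2.97), at 215 and 80.4 CPM. Summed over the list, day 1 stood at 9612 CPM, day 5 at 3616 CPM and steady state at 1964 CPM.

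Hypoxia-inducible factor is known to bind a short core, ACGTG or GCGTG, and promoters of the members with the largest ratio that hold it are shown for that reason. The windows are again the 250 bases before the RefSeq start in GRCm38.p6, with either core on either strand (CACGT or CACGC when reversed) in capitals. Pgk1 lies on chromosome X (chrX:106186850-106187099, plus strand) and Ankrd37 on chromosome 8 (chr8:45999851-46000100, minus strand).
Pgk1: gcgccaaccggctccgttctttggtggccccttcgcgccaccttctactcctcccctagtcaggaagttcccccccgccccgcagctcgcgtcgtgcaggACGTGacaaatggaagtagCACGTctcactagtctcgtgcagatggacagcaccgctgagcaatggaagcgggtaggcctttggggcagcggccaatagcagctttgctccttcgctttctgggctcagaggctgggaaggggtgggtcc
Ankrd37: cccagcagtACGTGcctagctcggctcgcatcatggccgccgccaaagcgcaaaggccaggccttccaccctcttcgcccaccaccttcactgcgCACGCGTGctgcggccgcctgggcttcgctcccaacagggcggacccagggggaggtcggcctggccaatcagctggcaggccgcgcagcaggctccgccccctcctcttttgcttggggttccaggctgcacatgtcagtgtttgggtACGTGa
Pgk1 has 2 matches and Ankrd37 has 4, of which a pair overlaps. Of the 34 windows of 25 members in the table, 27 (79.4%) held a core, against 38.6% of all windows and 57.6% of windows of the genes tested here. A match describes the letters only and shows no binding.

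Chemokines split by family member. Of 8 CXC chemokines 4 were at least 2-fold lower and 0 higher (median -1.29), and of 11 CC chemokines 5 were lower and 2 higher (median -0.96, or -0.35 over all genes with at least 1 UMI). Pf4 was at 8434 CPM on day 1, 2375 CPM on day 5 and 5066 CPM in steady state, and its UMIs per detecting cell were 25.7 and 7.70 while 93.5% and 82.8% of cells had it. Ccl6 was at 9545, 2648 and 2750 CPM, and Ccl9 at 3855, 1028 and 1061 CPM, both close to rest at day 5. Ccl8, which attracts monocytes and T cells, went the other way, from 209 to 808 CPM, with 139 CPM at rest, and from 11.2% to 34.0% of cells.

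Interleukins and other cytokines moved less, with 1 of 13 members at least 2-fold lower and 0 higher (median -0.15). That member was Il1rn, the decoy ligand of the interleukin-1 receptor, at 190 CPM on day 1, 60.1 CPM on day 5 and 21.1 CPM in steady state. Osm, oncostatin M, was at 239 and 130 CPM. Il1b, picked after its value was seen, was at 1166 and 1043 CPM. Growth factors gave 6 of 15 members higher and 3 lower (median 0.51). Igf1, a trophic factor for axons and Schwann cells, was at 36.9 CPM on day 1, 156 CPM on day 5 and 139 CPM in steady state. Gas6, the bridge between Axl and dying cells, was at 48.0, 162 and 500 CPM.

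Matrix proteins and proteases were lower in 20 of 25 members and higher in 2 (median log2 -1.37). Spp1, osteopontin, had the largest day 1 level of them and was picked for that: 8178 CPM on day 1, 2406 CPM on day 5 and 13.9 CPM in steady state. It was still detected in 63.5% of day 5 cells, after 85.8% at day 1. F10, coagulation factor X, was 5.95-fold lower (4.93 to 7.24). S100, annexin and galectin genes, which bind calcium or sugars, gave 7 of 20 members lower and 0 higher (median -0.62). S100a11 was at 1124 CPM on day 1, 319 CPM on day 5 and 166 CPM in steady state, and S100a6 at 2091, 873 and 462 CPM.

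Antioxidant genes gave 10 of 22 members lower and 2 higher (median -0.71). Prdx6, a peroxiredoxin, was at 399 CPM on day 1 and 111 CPM on day 5, and Slc7a11, the cystine importer, at 54.8 and 12.5 CPM. Hmox1, which breaks down heme, was at 993, 375 and 327 CPM on day 1, day 5 and rest. Of the iron list 2 of 13 members were higher and 2 lower, with transferrin (Trf) at 240, 769 and 1775 CPM and Hp, the hemoglobin scavenger haptoglobin, at 307, 99.2 and 4.23 CPM.

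Surface receptors were mixed at 2-fold, as 4 of 15 scavenger and lectin receptors were higher and 4 lower, and 2 of 14 Fc and TREM receptors were higher and 3 lower. Clec4d and Clec4e, a pair of lectins that sense microbial glycolipids, were at 398 and 199 CPM on day 1 and at 74.9 and 66.4 CPM on day 5. Msr1, a scavenger receptor for modified lipoproteins, was 4.25-fold lower (3.74 to 4.85). Clec4b1 was 3.42-fold higher (2.87 to 4.07). Trem2, a receptor for lipids, stayed under 2-fold at 604 CPM and 1156 CPM, and 61.1% and 74.3% of cells had it. Cd72 went from 34.8 to 128 CPM, and the neonatal Fc receptor Fcgrt from 162 to 370 CPM. Of 15 genes for uptake of dying cells, 3 were higher and 0 lower.

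Proliferation genes were higher from a low level. Of 24 cell cycle genes, 10 were higher by 2-fold and 1, Tubb4b, was lower (median log2 0.89). Only a few reached 50 CPM. Stmn1, a microtubule regulator, was at 32.6 CPM on day 1, 124 CPM on day 5 and 176 CPM in steady state. Mki67, the classical proliferation marker, picked after its value was seen, had 20 UMIs at day 1 and 82 at day 5, in 0.430% and 2.14% of cells. At 50 CPM or more the list's median was 0.19. Without the cells that detect 3 or more genes of this list (1080 at day 1 and 809 at day 5), the list's median was 0.00 and Stmn1 was 1.14 higher on the log2 scale. That rule also takes in broadly expressed genes such as H2afz, so it does not single out dividing cells.

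Several large groups had few or no members past 2-fold. No ribosomal protein gene of 83 passed 2-fold (median 0.18), though their sum went from 135720 to 162242 CPM. None of 10 mitochondrially encoded genes did either, although all 10 were higher (median 0.49). Of 78 respiratory chain genes encoded in the nucleus 2 were higher and 1 lower (median -0.17), the lower one being cytochrome c (Cycs), at 449 and 196 CPM. All 34 constitutive proteasome genes were lower by some amount, from -0.14 downward, with a median of -0.62, with 2 lower by 2-fold and 0 higher. Of 33 lysosomal genes, 1 was higher and 2 lower (median 0.15), and Ctsl, cathepsin L, was at 1943 CPM on day 1, 659 CPM on day 5 and 251 CPM in steady state. Interferon response genes gave 1 of 30 higher and 3 lower (median -0.37), with Isg15 at 416 and 215 CPM. Heat shock and chaperone genes gave 0 of 16 either way. Actin cytoskeleton genes gave 1 of 28 higher and 3 lower, among them Tmsb10, at 2717 and 1211 CPM.

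Regulators showed a comparable spread. Of 34 transcription factor genes, 5 were higher and 3 lower (median 0.09), beside 4.91% and 5.48% of all genes, with Batf3 at 35.3 and 104 CPM, Mef2c at 45.3 and 113 CPM, and Cebpb at 332 and 741 CPM. Immediate early genes gave 3 of 22 higher and 0 lower, and Egr1 was at 115 CPM on day 1, 268 CPM on day 5 and 1085 CPM in steady state. These genes are known to respond to tissue dissociation, and their part was not tested. Toll-like receptor and NF-kappaB genes gave 1 of 25 higher, Nfkbiz, at 84.0 and 221 CPM. Prostaglandin and leukotriene genes gave 5 of 16 higher and 1 lower, with Hpgds, the prostaglandin D synthase of hematopoietic cells, at 20.6, 76.2 and 121 CPM on day 1, day 5 and rest.

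**Figure D4:**
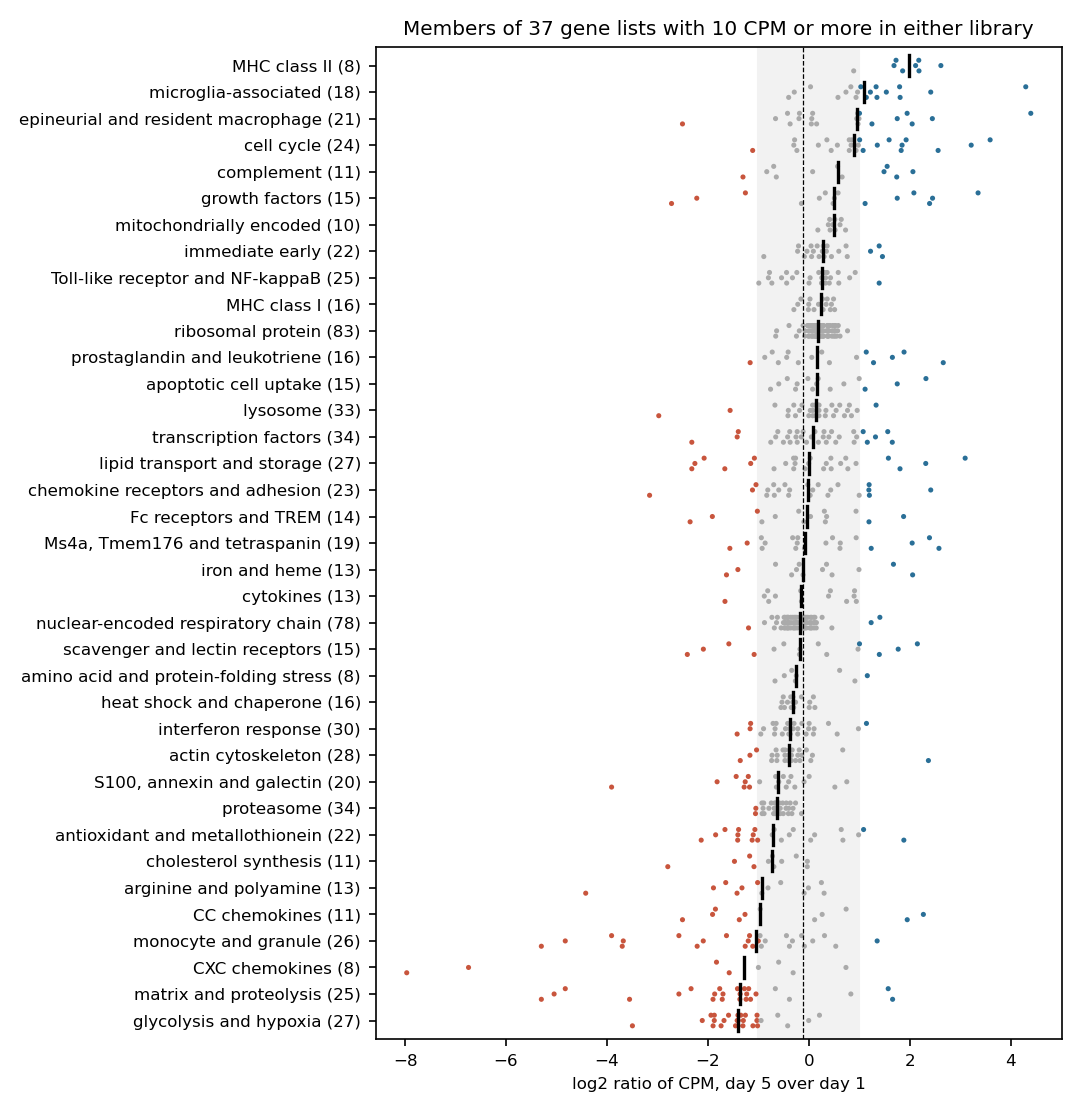
Each row is 1 of 37 gene lists, with the number of members at 10 CPM or more in brackets; points are members by their log2 ratio of CPM, day 5 over day 1, black bars are list medians, the grey band is 2-fold and the dashed line is the median of all genes. MHC class II has the highest median (1.99) and glycolysis and hypoxia the lowest (-1.40), while most lists have their median inside the band.

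Cells within a day varied widely. With every cell thinned to 1000 UMIs, class II genes took a median of 0.1% of a cell's UMIs at day 1 and 1.8% at day 5, but the middle 50% of day 5 cells ran from 0.3% to 5.2%. Of day 5 cells 85.1% lay above the day 1 median. For glycolysis and hypoxia genes the medians were 0.8% and 0.3%, and 6.08% of day 5 cells exceeded the day 1 median. S100, annexin and galectin genes behaved alike, at 1.7% and 0.8%. For the lipid list the medians were 1.5% and 5.3%, most of it Apoe. Complement went from 0.5% to 1.6% and CC chemokines from 2.2% to 0.9%. Cells are not replicates, and these are spreads within 1 library each.

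**Figure D5:**
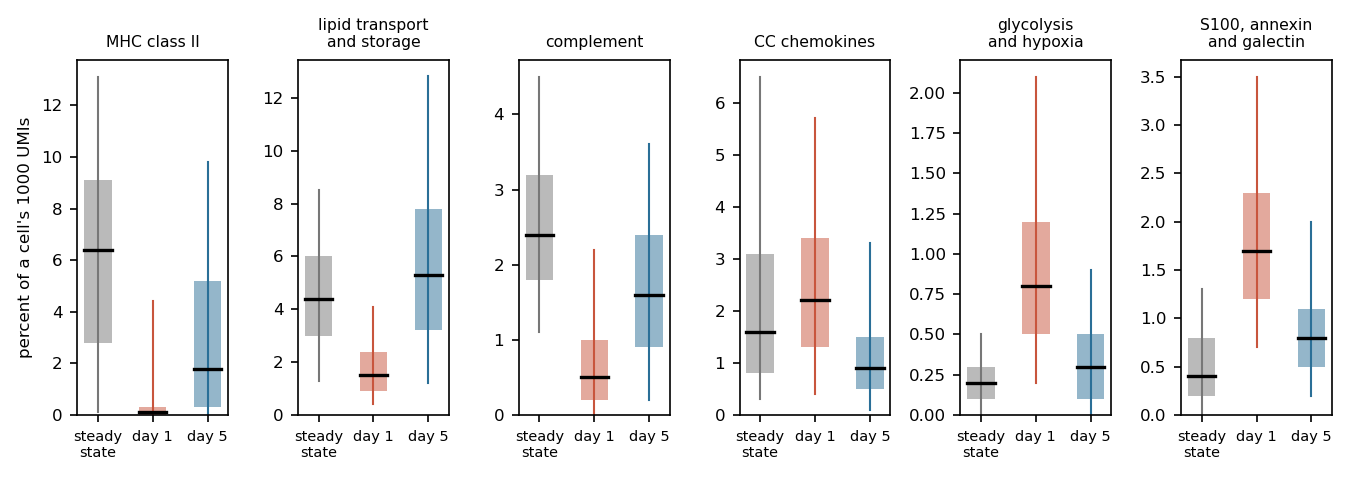
Percent of a cell's UMIs in 6 gene lists, with cells thinned to 1000 UMIs, for 638 steady-state, 2496 day 1 and 1777 day 5 cells; black lines are medians, boxes the middle 50% and thin lines the 5th to 95th percentile. The day 1 box lies lowest for class II, lipid and complement genes and highest for glycolysis and S100 genes.

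Early and late genes were also counted in the same cells, at 1000 UMIs per cell. As stated above, Arg1 UMIs at day 5 cannot be told apart from free RNA, and its part at day 1 was not tested. Cells with Arg1 are therefore not shown to express it on either day. At day 5, 194 of 1777 cells had an Arg1 UMI. H2-Aa was found in 58.2% of them (51.0 to 65.3) and in 75.0% (72.8 to 77.2) of the cells without Arg1. At day 1 it was found in 18.0% (16.3 to 19.8) of cells with Arg1 and 37.6% (33.9 to 41.5) of cells without, so the order was the same on both days. Retnla was in 12.9% (8.52 to 18.4) of day 5 cells with Arg1 and 20.0% (18.1 to 22.1) of those without, intervals that narrowly overlap. For Cx3cr1 the day 5 shares were 16.5% (11.6 to 22.5) and 13.6% (11.9 to 15.4), intervals that also overlap.

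Arg1 was found in a smaller share of Ly6c2-positive cells at day 5 than at day 1, as it was in cells without Ly6c2. At day 1, 69.8% of 324 such cells had Arg1 (64.4 to 74.7), near the 74.8% of cells without Ly6c2. At day 5 it was 4.65% of 86 cells (1.28 to 11.5), against 11.2% of cells without Ly6c2 (9.77 to 12.8), intervals that overlap. Free RNA cannot be told apart from expression in these day 5 shares either, and its part in the day 1 shares was not tested. Of 643 Chil3-positive cells at day 1, 36.2% had C1qa (32.5 to 40.1), against 46.0% of cells without Chil3 (43.7 to 48.3). At day 5 only 48 cells had Chil3, and 56.2% of them had C1qa (41.2 to 70.5), against 85.5% (83.7 to 87.1). The limit on free RNA given above holds for C1qa too.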

How the data were processed

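The 3 droplet libraries (10x Genomics v1) of sciatic nerve macrophages used came from steady state, day 1 and day 5, 1 each. The deposited tables hold raw UMI counts per gene and cell for 27998 genes, aligned to mm10 and counted with Cell Ranger 2.0.2, per the submitters' processing notes. Whether the authors filtered cells is not stated in these sources. The further filter removed 3 barcodes each from steady state and day 1, and 0 from day 5. No doublet caller was run, and leaving out the 2% of cells with the most UMIs was tried instead. A deposited table that pools the libraries was not used, as its cells repeat those of the sample tables. With 1 library per time point no model was fitted. Counts were summed per library. Ratios of CPM carry exact conditional binomial intervals, shares exact Clopper-Pearson intervals, and levels exact Poisson intervals, all at 95%, computed with Python 3.11.15, numpy 2.4.6 and scipy 1.17.1. A count of 0 allows up to 3 counts, which is 1.81, 0.377 and 0.543 CPM at steady state, day 1 and day 5. Scaling alternatives used edgeR 4.0.16 (TMM) in R 4.3.3 and median-of-ratios factors. The interval script was tested on simulated independent Poisson counts, the model that the intervals assume. Real UMIs cluster in cells, such as the 671 Retnla UMIs in 85 day 1 cells. The test therefore does not show that the intervals cover the spread between cells.

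The text names the 15 genes with the largest ratio in each direction at 50 CPM or more, and up to 4 such members of each of 37 gene lists. Ribosomal protein, mitochondrial, hemoglobin, immunoglobulin and unnamed genes were left out of the leading 15. The comparison, the lists and the rule were chosen with earlier results of these data known, and 61 genes stand in more than 1 list. Promoters are from the RefSeq table of GRCm38.p6. Other genes are marked as picked after their values were seen.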

Additional observations from a re-analysis of the deposited data

How the results depend on the processing

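The 4 counts of genes past 2-fold and 4-fold stayed within 1.5 times under 10 of the 12 alternatives run. They moved with the filter on low levels, since fewer or more genes are then tested. At 50 CPM or more, 86 genes were higher and 163 lower by 2-fold, and 21 and 28 by 4-fold. With at least 1 UMI in either library they were 1498 and 1149, and 469 and 269. No sign changed in 1000 comparisons of 100 named genes past 2-fold, though 9 of these genes came under 2-fold in 22 of them. Without cells detecting 3 or more cell cycle genes the log2 ratio was -4.72 for Areg, -3.43 for Ass1, -6.31 for Vcan, -4.37 for Chil3 and 2.55 for Hpgds. With cells thinned to 1000 UMIs it was -5.73 for Dmkn, -3.80 for AA467197 and -3.14 for Slc7a11. The cause was not tested. The ratio of cell shares moved beyond its counting interval for 11 of the 30 leading genes at 1000 UMIs per cell and for 16 at 500. Of the 6 list medians past 2-fold, none changed sign, and microglia-associated (0.94) and monocyte genes (-0.98 and -0.95) came under it in 3 of 72 comparisons. Medians near 0 changed sign for the lipid, Fc receptor, chemokine receptor, Ms4a, transcription factor, uptake and cytokine lists. The alternative on the pooled table was not run. No paired analysis was possible because each time point has 1 library. Without a second library per day, the spread between animals is unknown.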

Other observations

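A few further genes, picked after their values were seen, are given as values. Gpnmb, a glycoprotein of lipid-laden macrophages, had 0 UMIs in steady state, 136.3 CPM at day 1 and 129.2 CPM at day 5, a ratio whose interval spans 1 (1.05-fold lower, 0.958 to 1.16). Il1b was 1.12-fold lower at day 5 (1.08 to 1.16), with 397 CPM at rest and 53.3% and 48.1% of crushed-nerve cells positive. Nr1h3, a nuclear receptor that senses oxidised cholesterol, was 4.99-fold lower at day 5 (3.44 to 7.46), from 28.9 to 5.79 CPM, on the same days on which Apoe, one of its known targets, was higher. Hpgd, which inactivates prostaglandins, was at 6.28 CPM at day 1, 39.8 CPM at day 5 and 480 CPM in steady state, and Fpr1, a receptor for bacterial peptides, was at 30.6 CPM, 3.44 CPM and 0 UMIs.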
